A study of Mus musculus with 8 samples.

Results

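The 34 genes described here are immediate early genes, which code mostly for transcription factors and feedback regulators with short-lived mRNA. They were chosen by symbol, and all 34 symbols were found among the 27710 genes of the count files. The study made 8 libraries from cultured mouse bone marrow cells after lineage depletion, which takes out mature cells and leaves the stem and progenitor fraction, grown in medium with 10% fetal bovine serum and the cytokines mSCF, mTPO and mFlt3L at 50 ng/mL each and mIL3 at 10 ng/mL. Of the 4 groups, 3 libraries came from Vav-iCre+; Alkbh5fl/fl cells fed the nucleoside 4-thiouridine (s4U, 100 µM for 2 h) and 3 from WT cells fed s4U in the same way. The other groups were 1 unlabelled Vav-iCre+; Alkbh5fl/fl library and 1 unlabelled WT library. In the Vav-iCre+; Alkbh5fl/fl cells, called Alkbh5-deficient below, a recombinase under the Vav promoter, active in blood cells, acts on a floxed Alkbh5 gene from early in blood formation, before the culture begins. The WT cells are labelled only as WT, and the sources used here do not say whether they carried a Cre or a floxed allele. All RNA, fed or not, went through the TimeLapse chemistry that recodes s4U so that it reads as C.

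Immediate early genes are transcribed within minutes of a growth factor, cytokine or stress signal, from promoters already occupied by factors such as SRF with its TCF partners, CREB and AP-1, and without new protein synthesis. Their mRNAs are often removed quickly through AU-rich elements in the 3′ UTR, which proteins such as ZFP36 bind. ALKBH5 takes the methyl group off N6-methyladenosine, a mark that is itself tied to mRNA decay, so the level of short-lived mRNAs in cells without it is one readout of the study's question about RNA stability. The counts report total RNA, old and new together, and no decay rate was derived from them.

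The genes were short. Over the 34 genes the median span was 5.07 kb and the median representative transcript had 3 exons, against 24.2 kb and 9 exons for 11022 protein-coding genes with at least 100 counts over all libraries. The representative transcript had 4 or fewer exons in 29 of the 34 genes (85.3%) and in 19.6% of the background genes. Among the 33 genes with an annotated 3′ UTR of at least 100 bases, 22 (66.7%) held 3 or more copies of the pentamer ATTTA, against 37.6% of 10468 background genes. The heptamer TATTTAT, which contains the pentamer, was found in 19 of the 33 (57.6%) and in 30.02% of the background. These shares describe the genes and were given no test, and 3′ UTR length, whose median was 1189 bases in the 33 genes and 1104.5 bases in the background, was not held equal.

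To show these elements, the stretch of 30 bases with the most ATTTA is printed for the genes that are given full statistics below between genotypes or with s4U feeding, and for Jun and Dusp1. Capitals mark ATTTA, and sequences run along the strand of the gene, from GENCODE M21 transcripts on GRCm38. The annotated 3′ UTRs of Ier2 and Gadd45b held no ATTTA, and that of Egr1 is not printed here. The windows are Fos at chr12:85477102-85477131 (plus strand), Fosb at chr7:19303325-19303354 (minus), Jun at chr4:95049207-95049236 (minus), Atf3 at chr1:191171241-191171270 (minus), Maff at chr15:79358895-79358924 (plus), Nr4a1 at chr15:101274702-101274731 (plus), Nr4a3 at chr4:48083559-48083588 (plus), Ier3 at chr17:35822485-35822514 (plus), Ier5 at chr1:155096846-155096875 (minus) and Dusp1 at chr17:26506156-26506185 (minus). Of the 10 windows, those of Fos and Dusp1 hold 2 overlapping copies, those of Jun, Maff, Nr4a1 and Ier3 hold 2 separate copies, and those of Fosb, Atf3, Nr4a3 and Ier5 hold 1.
Fos: gtgttttcaATTTATTTAttaagatggatt
Fosb: ccacccccagctATTTAtccctttcctggt
Jun: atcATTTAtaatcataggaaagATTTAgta
Atf3: accaattccaggATTTAggccttatcatcc
Maff: aatcacATTTAatcttatATTTAgggagag
Nr4a1: ATTTAtatttgtgtattttcctggATTTAt
Nr4a3: gttgtgttttatATTTAggctttggtgggt
Ier3: taattaatATTTAtgtATTTAtgtatatcc
Ier5: gaggttggctaaATTTAattctcatgtagc
Dusp1: gctggtccttATTTATTTAacacccccctc

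RefSeq promoters (GRCm38.p6) were at hand for 28 of the 34 genes. The genes not matched were Egr1, Klf10, Egr3, Myc, Ier2 and Sik1. In the 250 bases before an annotated start, on either strand, the CRE core TGACG was found in 16 of 28 genes (57.1%), against 26.5% of 14544 genes with a promoter at hand. These 14544 genes had no count minimum, unlike the background above. A gene counted if any of its annotated starts had a match, and the number of starts was not held equal. The full CRE, TGACGTCA, which contains that core on both strands, was found in 3 of 28 (10.7%), in Btg2, Maff and Dusp1, against 2.58%. The CArG box, the site that SRF binds, was found in 3 of 28 (10.7%), in Zfp36, Egr2 and Dusp5, against 1.44%. The letters TATAAA were found in 4 of 28 (14.3%), against 9.56%, and the AP-1 site TGANTCA in 1 of 28 (3.57%), in Csrnp1, against 6.44%. A match is a run of letters and does not show that a factor binds there.

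The 120 bases before the start of 4 genes are printed because their RNA had the smallest p-values for s4U feeding among the genes with a promoter window free of annotated exons. They are Fos at chr12:85473770-85473889 (plus strand), Maff at chr15:79347400-79347519 (plus, 1 of 3 annotated starts), Ier5 at chr1:155099637-155099756 (minus) and Nr4a1 at chr15:101266726-101266845 (plus). Capitals mark TGACG or its reverse complement CGTCA, the full CRE in Maff, and TATAAA in Fos.
Fos: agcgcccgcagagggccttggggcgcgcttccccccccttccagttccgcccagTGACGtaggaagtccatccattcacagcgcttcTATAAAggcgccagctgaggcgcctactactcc
Maff: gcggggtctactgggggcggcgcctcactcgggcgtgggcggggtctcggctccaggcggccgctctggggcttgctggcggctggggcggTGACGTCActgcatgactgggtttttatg
Ier5: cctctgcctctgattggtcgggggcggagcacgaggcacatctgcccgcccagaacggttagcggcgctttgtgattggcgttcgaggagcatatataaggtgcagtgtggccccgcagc
Nr4a1: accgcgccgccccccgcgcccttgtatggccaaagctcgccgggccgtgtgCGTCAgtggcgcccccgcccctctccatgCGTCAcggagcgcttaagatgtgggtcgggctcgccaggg

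**Figure D1:**
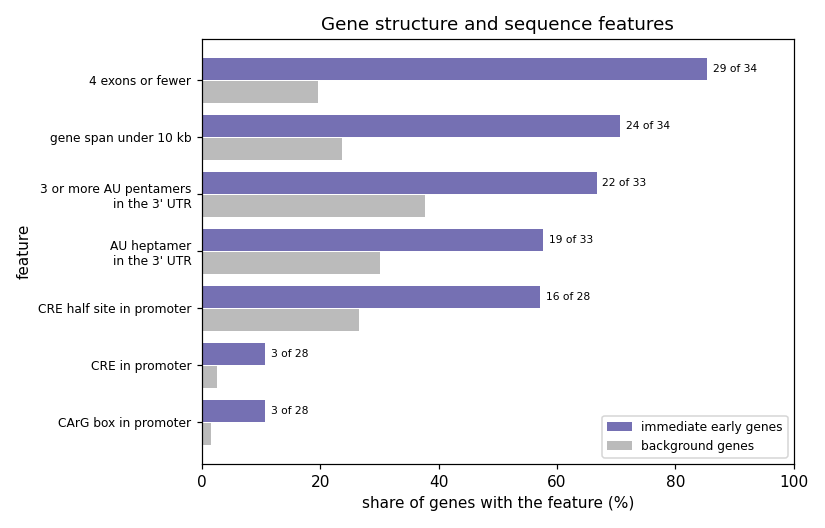
Share of genes (%, x axis) with each structural or sequence feature (y axis) among the immediate early genes (upper bars, with their counts) and among background genes (lower bars). Background genes had at least 100 counts for the structure and 3′ UTR features, but no count minimum for the promoter features. The gap is widest for a representative transcript of 4 or fewer exons, 85.3% against 19.6%.

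Gene counts per library ranged from 5723245 to 8615997, and the 34 genes together took between 0.662% and 0.815% of them. Alkbh5, the targeted gene, had 0, 1 and 1 counts in the fed Alkbh5-deficient libraries, against 1166, 1479 and 1061 in the fed WT ones, and 1 count in the unlabelled Alkbh5-deficient library, against 1263 in the unlabelled WT one. WT fed replicate 3 stood apart: the ribosomal-repeat gene Gm26917 took 14.2% of its gene counts, against 6.33% to 8.34% in the others. The summed level of 13 stromal and endothelial markers was 2014 CPM (counts scaled to a common library total, with TMM factors) in that library, against 115 to 732 CPM in the other 7, and it was also the library with the highest level of 19 of the 34 genes. Results in which it weighs most are given with and without it. All 16 stem and progenitor markers were detected in every library, at a summed 931 to 1175 CPM, next to 5259 to 13703 CPM for 16 neutrophil markers and 2942 to 7978 CPM for 17 monocyte and macrophage markers. In bulk RNA, fewer cells of a type and less RNA per cell cannot be told apart.

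All 34 genes were expressed in all 8 libraries, with the lowest count, 68, for Tob1 in WT fed replicate 3. Levels were compared between genes as CPM per kb of exon, averaged over 8 libraries. Among the AP-1 subunits, which pair to bind AP-1 sites, the JUN side was the more abundant: Jund averaged 369, Junb 202 and Jun 152 CPM per kb. On the FOS side, Fosl2 averaged 87.3, Fos 71.5 and Fosb 50.6 CPM per kb. Of their relatives, Atf3, a stress-induced repressor, averaged 103 and Maff, a small MAF protein without an activation domain, 14.2 CPM per kb.

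Among the zinc finger factors, Egr1, a rapid reporter of ERK signalling, averaged 97.0 CPM per kb, Egr2 26.5 and Egr3 18.3. The KLF factors had values of 51.3 CPM per kb for Klf4, which promotes monocyte differentiation, 43.1 for Klf10, 42.9 for Klf6 and 28.4 for Klf2. The orphan nuclear receptors of the NR4A family were far apart, with 106 CPM per kb for Nr4a1, 46.2 for Nr4a3 and 13.5 for Nr4a2. Myc, the growth regulator, averaged 106 CPM per kb and the nuclear factor Csrnp1 40.7.

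The remaining genes, feedback regulators and genes of survival, stress and signalling, spanned 6.86 to 200.5 CPM per kb. Mcl1, an anti-apoptotic BCL2 relative that progenitors need for survival, averaged 200.5 CPM per kb. Zfp36, which brings the decay machinery to AU-rich mRNAs, averaged 94.9 CPM per kb, and the antiproliferative CCR4-NOT partners Btg2 and Tob1 had 61.3 and 6.86, Tob1 being the lowest of all 34. The MAP kinase phosphatases averaged 66.5 CPM per kb for Dusp5 and 18.3 for Dusp6, both of which act on ERK, 34.5 for Dusp1, which acts mainly on p38 and JNK, and 27.5 for Dusp2. Ier2, Ier5 and Ier3, named for their immediate early response, averaged 146, 92.2 and 33.4 CPM per kb. The stress protein gene Gadd45b had 50.2, the small GTPase gene Rhob 32.2 and the salt-inducible kinase gene Sik1 17.8 CPM per kb.

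**Figure D2:**
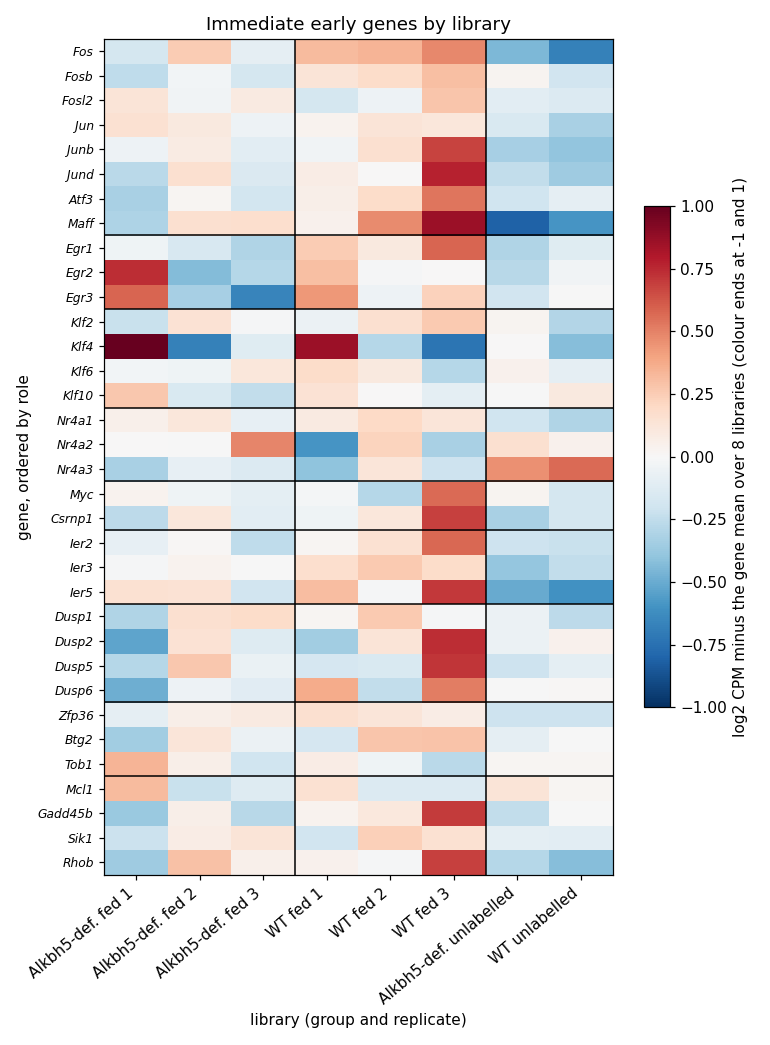
Deviation of each gene's log2 CPM from its mean over 8 libraries (colour, ending at -1 and 1), with genes down the page by role and libraries across, Alkbh5-deficient before WT and fed before unlabelled. WT fed replicate 3 is the highest library for 19 of the 34 genes, and Klf4, Egr2 and Egr3 are highest in Alkbh5-deficient fed replicate 1.

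The first comparison asked whether these short-lived mRNAs differed in cells without ALKBH5. None of the 34 genes passed the threshold between fed Alkbh5-deficient and fed WT libraries (edgeR quasi-likelihood test, Benjamini-Hochberg adjusted p below 0.05, where 0.0075% of 13342 genes tested passed). DESeq2 called none of the 34 either. At an unadjusted p below 0.05, edgeR listed 4 of 34 genes, all lower in Alkbh5-deficient cells (11.8%, against 0.735% of all genes lower at that p). DESeq2 listed 3 of the 34, also lower, where 0.974% of all genes had such a p in either direction. The fitted log2 fold change was negative for 29 of the 34 genes, with a median of -0.22, whereas it was negative for 49.8% of all genes, with a median of 0.00. Leaving out WT fed replicate 3 moved the median of the 34 genes to -0.11, with 27 negative, and ended every one of the 4 unadjusted listings. Without Alkbh5-deficient fed replicate 3 instead, the median was -0.19, and the SEs of these 4 genes were wider than in the full fit. Egr1 then had -0.45 ± 0.23, Fosb -0.37 ± 0.20, Atf3 -0.44 ± 0.24 and Fos -0.35 ± 0.21. With each of the other fed libraries left out in turn, the median ranged from -0.27 to -0.19, so it moved farthest without WT fed replicate 3. Each such fit also has fewer libraries, and how far this ends the listings was not tested.

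Egr1 had the smallest p. Its level was 413, 381 and 346 CPM in fed Alkbh5-deficient replicates 1 to 3, against 507, 457 and 638 CPM in fed WT replicates 1 to 3. The groups did not overlap, and the highest value belonged to WT fed replicate 3. The log2 fold change was -0.51 ± 0.18 (SE), with an unadjusted p of 0.0193 and an adjusted p of 1.00 by edgeR, and -0.34 ± 0.15 without WT fed replicate 3.

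Fos, the partner of the JUN proteins in AP-1, was measured at 129, 174 and 137 CPM in fed Alkbh5-deficient libraries, against 181, 184 and 203 CPM in fed WT libraries. The groups did not overlap, although Alkbh5-deficient replicate 2 came within reach of the lowest WT value. The log2 fold change of Fos was -0.39 ± 0.17 (SE), with an unadjusted p of 0.0496 and an adjusted p of 1.00 by edgeR. Its close relative Fosb was measured at 159, 186 and 168 CPM in fed Alkbh5-deficient libraries, against 207, 215 and 234 CPM in fed WT libraries, again with no overlap. For Fosb the log2 fold change came to -0.37 ± 0.15 (SE), at an unadjusted p of 0.0356 and an adjusted p of 1.00 by edgeR. Without WT fed replicate 3 the values were -0.32 ± 0.17 for Fos and -0.30 ± 0.14 for Fosb.

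Atf3, Gadd45b and Ier2 completed the 6 genes of smallest p. Atf3 had 174, 221 and 193 CPM in fed Alkbh5-deficient libraries, against 228, 248 and 316 CPM in fed WT libraries. The groups did not overlap, and the log2 fold change was -0.44 ± 0.18 (SE), with an unadjusted p of 0.0413. Gadd45b had 51.8, 70.0 and 55.5 CPM in fed Alkbh5-deficient libraries, against 68.9, 72.5 and 109 CPM in fed WT libraries. Here the groups overlapped, and the log2 fold change was -0.51 ± 0.23 (SE), with an unadjusted p of 0.0506. Ier2 had 207, 220.4 and 184 CPM in fed Alkbh5-deficient libraries, against 221, 243 and 325 CPM in fed WT libraries, without overlap and with a log2 fold change of -0.39 ± 0.19 (SE) and an unadjusted p of 0.0702. All 3 had an adjusted p of 1.00 by edgeR. Without WT fed replicate 3 the log2 fold changes were -0.28 ± 0.16 for Atf3, -0.26 ± 0.18 for Gadd45b and -0.19 ± 0.15 for Ier2, so all 3 were more than 1.5 times smaller.

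Jun and Dusp1 had smaller differences. Jun had 535, 515 and 465 CPM in fed Alkbh5-deficient libraries, against 493, 527 and 521 CPM in fed WT libraries. Dusp1 had 66.0, 90.4 and 92.0 CPM in fed Alkbh5-deficient libraries, against 82.3, 97.5 and 80.6 CPM in fed WT libraries. In both genes the groups overlapped, with log2 fold changes of -0.04 ± 0.14 for Jun and -0.08 ± 0.18 for Dusp1 (SE).

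By role, negative values were spread over most families. Of the 8 AP-1, ATF and MAF genes 7 were negative, Fosl2 being the exception at 0.02 ± 0.17, and so were all 3 EGR, all 3 IER and all 4 DUSP genes. The positive values were those of Nr4a2 (0.36 ± 0.25), Klf4 (0.34 ± 0.56), Tob1 (0.14 ± 0.22), Mcl1 (0.02 ± 0.19) and Fosl2. In 6 genes, Egr1, Fosb, Atf3, Fos, Ier2 and Ier3, every fed Alkbh5-deficient library was below every fed WT library, which is 17.6% of the 34 and compares with 2.92% of all genes. In no gene of the 34 was every fed Alkbh5-deficient library above, compared with 2.67% of all genes.

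**Figure D3:**
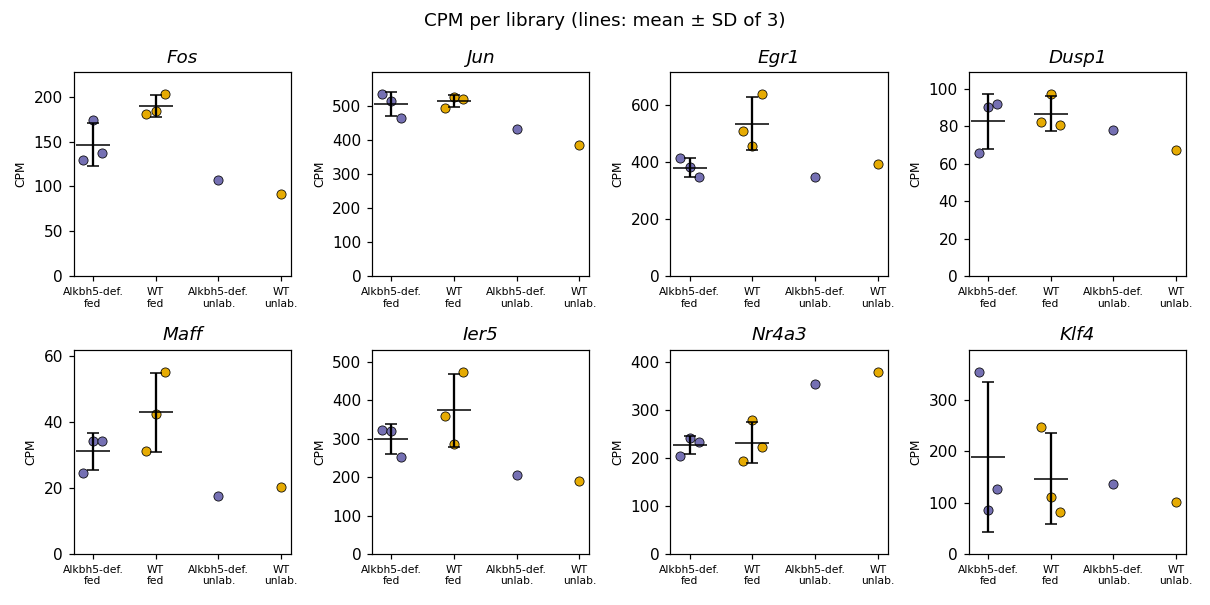
CPM (y axis, from 0) of 8 genes in each library, with groups across, Alkbh5-deficient left of WT and fed left of unlabelled; points are libraries, lines the mean and SD of 3 fed libraries. Egr1 in fed cells spans 346 to 413 CPM in Alkbh5-deficient libraries and 457 to 638 CPM in WT libraries, whereas Jun and Dusp1 overlap.

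The genotype difference varied between library pairs. In same-numbered pairs of fed libraries the median log2 ratio of Alkbh5-deficient over WT for the 34 genes was -0.16 for replicates 1, -0.09 for replicates 2 and -0.41 for replicates 3, and 23, 25 and 26 genes were negative. The pair with the largest median holds WT fed replicate 3, and the part that its Gm26917 share or its stromal markers have in this was not tested. The summed stromal and endothelial markers were 119, 686 and 732 CPM in fed Alkbh5-deficient libraries, against 115, 400.0 and 2014 CPM in fed WT libraries. All 8 of these markers that were tested had negative log2 fold changes between genotypes, with a median of -0.71 and none passing by edgeR or DESeq2, and the smallest p-values were those of Col3a1 (-1.14 ± 1.13), a fibrillar collagen, and Cxcl12 (-0.62 ± 0.71), a niche chemokine. In the unlabelled pair the median was 0.02 and 15 genes were negative, although this is 1 library against 1. There Fos had 107 CPM in the Alkbh5-deficient library, against 91.1 CPM in the WT library. That Fos ratio was 1.17, with a 95% interval of 1.06 to 1.29 that covers counting error only. Egr1 had 346 CPM in the unlabelled Alkbh5-deficient library, against 391 CPM in the unlabelled WT library.

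**Figure D4:**
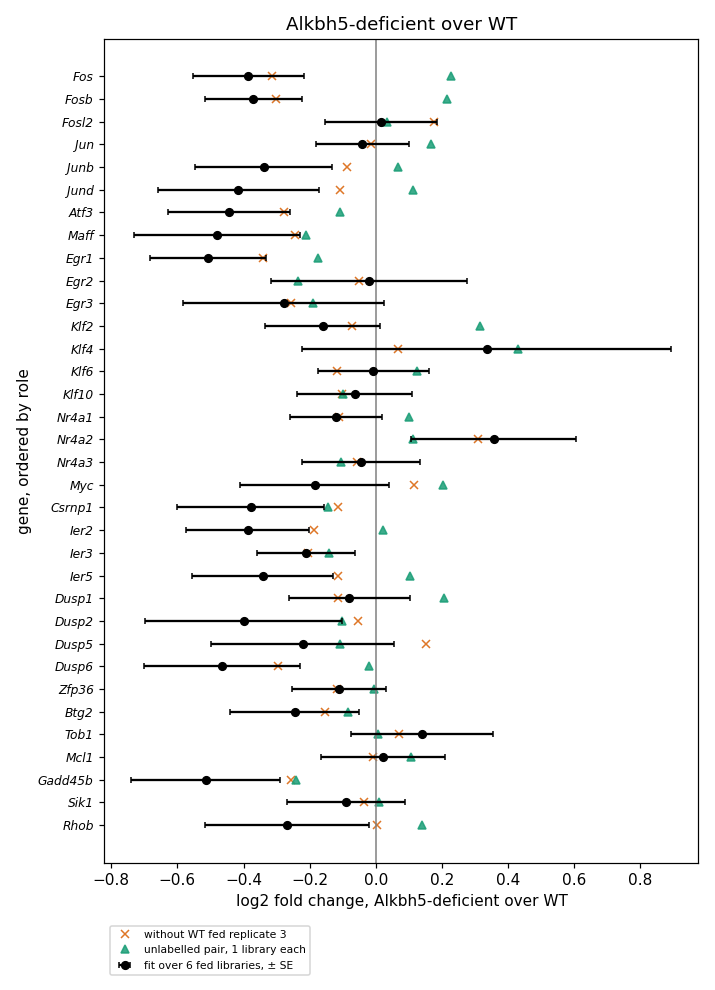
Log2 fold change of Alkbh5-deficient over WT (x axis) for each gene (y axis, by role): the fit over 6 fed libraries with its SE (circles), the same without WT fed replicate 3 (crosses) and the unlabelled pair (triangles). The circles are negative for 29 of 34 genes and the crosses for 27, and the median moves to -0.11 in the crosses, against -0.22 in the circles.

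The second comparison set the 6 fed libraries against the 2 unlabelled ones, adjusted for genotype. No gene of the 34 passed the threshold (edgeR, adjusted p below 0.05, where 0.0267% of 14988 genes passed). DESeq2 called 4 of them: Fos, Maff and Ier5 were higher in fed libraries (8.82% of the 34, against 4.12% of all genes with an adjusted p) and Nr4a3 was lower (2.94%, against 3.47%). At an unadjusted p below 0.05 by edgeR, 8 genes were higher in fed libraries (23.5%, against 9.53% of all genes) and 1 was lower (2.94%, against 10% of all genes). The median log2 fold change of the 34 genes was 0.23, with 29 positive, compared with 0.03 over all genes. The 2 unlabelled libraries held both Xist and the Y-linked Ddx3y RNA, while each fed library held 1 of them beyond 2 counts. The mix of animals and the feeding cannot be told apart here.

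Fos was measured at 129, 174 and 137 CPM in fed Alkbh5-deficient libraries and 181, 184 and 203 CPM in fed WT libraries, against 107 and 91.1 CPM in the unlabelled Alkbh5-deficient and WT libraries. Every fed library was above both unlabelled ones. The log2 fold change was 0.76 ± 0.19 (SE), with an adjusted p of 0.165 by edgeR and 0.0149 by DESeq2. Maff was measured at 24.7, 34.2 and 34.4 CPM in fed Alkbh5-deficient libraries and 31.4, 42.4 and 55.4 CPM in fed WT libraries, against 17.5 and 20.3 CPM in the unlabelled ones. Its fed libraries also lay above both unlabelled ones, with a log2 fold change of 0.97 ± 0.25 (SE) and an adjusted p of 0.165 by edgeR and 0.0173 by DESeq2. Both carry a TGACG in the promoter windows printed above.

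Ier5, which takes part in the heat shock response, was measured at 323, 320.4 and 254 CPM in fed Alkbh5-deficient libraries and 361, 287 and 475 CPM in fed WT libraries, against 205 and 191 CPM in the unlabelled ones. Again no fed library was as low as either unlabelled one. The log2 fold change of Ier5 was 0.76 ± 0.22 (SE), with an adjusted p of 0.167 by edgeR and 0.0273 by DESeq2. Its promoter window held none of the motifs searched.

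Nr4a3, an orphan receptor that restrains myeloid leukaemia in mice together with Nr4a1, went the other way. It was measured at 205, 243 and 234 CPM in fed Alkbh5-deficient libraries and 195, 279 and 223 CPM in fed WT libraries, against 354 and 381 CPM in the unlabelled ones. All 6 fed libraries were below both unlabelled ones. The log2 fold change was -0.66 ± 0.15 (SE), with an adjusted p of 0.165 by edgeR and 0.0166 by DESeq2. Its relative Nr4a1 was measured at 293, 306 and 267 CPM in fed Alkbh5-deficient libraries and 299.6, 324 and 306 CPM in fed WT libraries, against 246 and 229.6 CPM in the unlabelled ones. Nr4a1 was thus higher in every fed library, with a log2 fold change of 0.34 ± 0.13 (SE) and an adjusted p of 0.208 by edgeR and 0.0733 by DESeq2. Nr4a2 lay between them, at -0.09 ± 0.23. Nr4a3 was also among the longer genes of the set, with a span of 41.3 kb, and Nr4a1 spans 20.5 kb. The longer genes Dusp1 (56.5 kb) and Atf3 (47.7 kb) had positive log2 fold changes, 0.24 ± 0.17 and 0.22 ± 0.18 (SE).

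Ier3, which modulates survival signalling, was measured at 37.2, 38.5 and 37.3 CPM in fed Alkbh5-deficient libraries and 42.0, 45.0 and 42.5 CPM in fed WT libraries, against 28.7 and 31.6 CPM in the unlabelled ones. The log2 fold change of Ier3 came to 0.43 ± 0.14 (SE), at an adjusted p of 0.173 by edgeR and 0.0604 by DESeq2. Jun (0.33 ± 0.13), Junb (0.51 ± 0.21) and Zfp36 (0.29 ± 0.13) also had every fed library above both unlabelled ones. The unlabelled levels of the 2 other genes given in every library were 433 and 385 CPM for Jun and 78.0 and 67.5 CPM for Dusp1, Alkbh5-deficient first. Dusp1 overlapped between fed and unlabelled libraries, with a log2 fold change of 0.24 ± 0.17.

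In all, 8 of the 34 genes had every fed library above both unlabelled ones (23.5%, compared with 14% of all genes), and 1, Nr4a3, had every fed library below (2.94%, compared with 16.8%). All 8 AP-1, ATF and MAF genes had positive log2 fold changes, from 0.11 in Fosb to 0.97 in Maff, as did all 3 EGR, all 3 IER and all 4 DUSP genes. Without WT fed replicate 3 the values were 0.72 ± 0.17 for Fos, 0.86 ± 0.20 for Maff, 0.66 ± 0.15 for Ier5 and -0.65 ± 0.15 for Nr4a3. The unlabelled libraries weighed more on Fos, whose log2 fold change was 0.48 ± 0.25 without the unlabelled WT library and 1.06 ± 0.26 without the unlabelled Alkbh5-deficient one. Without the unlabelled WT library, Maff had 0.85 ± 0.38, Ier5 0.56 ± 0.32 and Nr4a3 -0.62 ± 0.24, and without the unlabelled Alkbh5-deficient library they had 1.09 ± 0.38, 0.98 ± 0.33 and -0.71 ± 0.24. The summed neutrophil markers moved the same way, with 12513, 7815 and 8304 CPM in fed Alkbh5-deficient libraries and 13703, 7101 and 7856 CPM in fed WT libraries, against 6173 and 5259 CPM in the unlabelled ones. All 16 had positive log2 fold changes, with a median of 0.74. Prtn3 (0.93 ± 0.23) and Elane (0.81 ± 0.22), both primary granule proteases, had the smallest p, and none of the 16 passed by edgeR while DESeq2 called 3 higher. None was at 0 in any library. The 17 mast cell, basophil and eosinophil markers summed to 1148, 1039 and 1078 CPM in fed Alkbh5-deficient libraries and 2181, 1002 and 1508 CPM in fed WT libraries, against 825 and 913 CPM in the unlabelled ones, with 1 to 4 of them at 0 in each library. Of the 13 tested, 11 were positive with feeding (median 0.32) and 10 were negative between genotypes (median -0.29), and none passed by edgeR. DESeq2 called 2 of them higher with feeding and none between genotypes. The granule genes Prg2 and Prss34 had the smallest p in both comparisons, at 0.78 ± 0.19 and 0.97 ± 0.32 with feeding and -0.49 ± 0.19 and -0.81 ± 0.31 between genotypes. The part of both lists in the values of the immediate early genes was not tested.

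**Figure D5:**
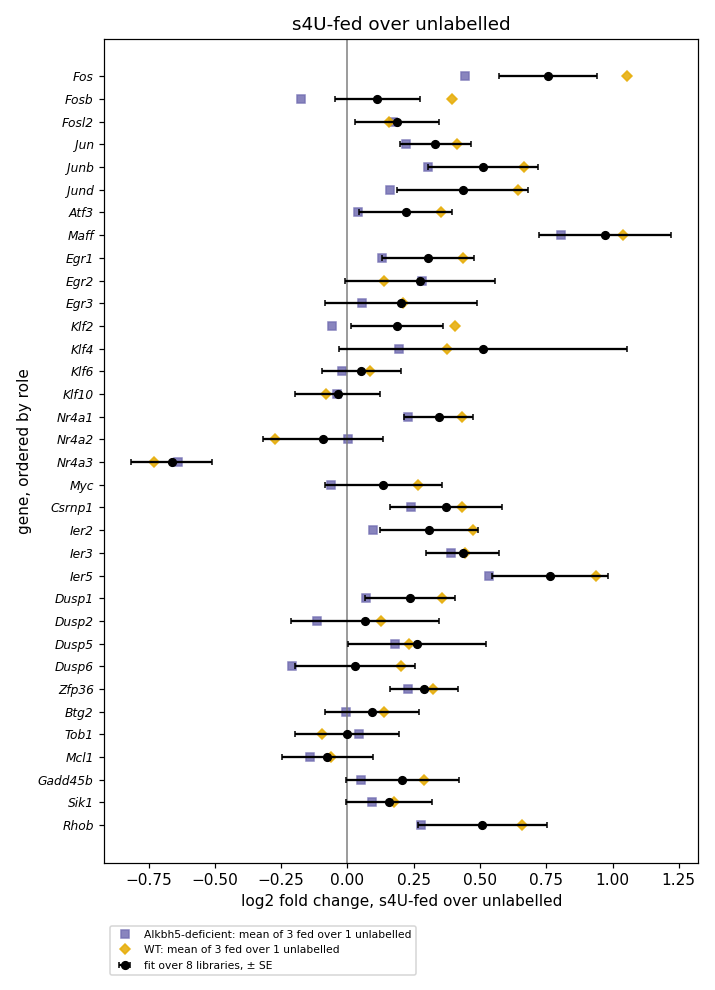
Log2 fold change of s4U-fed over unlabelled (x axis) for each gene (y axis, by role): the fit over 8 libraries with its SE (circles), and the mean of 3 fed libraries over the 1 unlabelled library within Alkbh5-deficient (squares) and WT cells (diamonds). Maff, Ier5 and Fos lie farthest to the right, at 0.97, 0.76 and 0.76, and Nr4a3 lies farthest to the left at -0.66.

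The third comparison asked whether the genotype difference itself differed between fed and unlabelled libraries. No gene of the 34 passed (edgeR interaction term, adjusted p below 0.05, where 0% of 14988 genes passed), none had an unadjusted p below 0.05, and DESeq2 gave the same counts for the 34. The smallest p was that of Fosb, with an interaction of -0.55 ± 0.30 on the log2 scale (SE) and an unadjusted p of 0.101. Next came Fos at -0.58 ± 0.34 (unadjusted p of 0.122), Klf2 at -0.45 ± 0.35 (0.238), Jund at -0.50 ± 0.49 (0.338), Ier2 at -0.38 ± 0.38 (0.347) and Ier5 at -0.42 ± 0.44 (0.368). All 6 had an adjusted p of 1.00 by edgeR. Without WT fed replicate 3 the interaction was -0.47 ± 0.27 for Fosb, -0.50 ± 0.33 for Fos and -0.34 ± 0.32 for Klf2, and it was more than 1.5 times smaller for Jund (-0.18 ± 0.34), Ier2 (-0.16 ± 0.27) and Ier5 (-0.17 ± 0.33). The sign was negative for 28 of the 34 genes, with a median of -0.20, compared with -0.01 over all genes. Within genotypes, the median log2 ratio of fed over unlabelled was 0.09 in Alkbh5-deficient cells and 0.34 in WT cells, each against a single unlabelled library, so differences of this size in the 34 genes were not resolved.

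Within the set, genes differed in how much they varied. The coefficient of variation over 8 libraries ranged from 9.70% in Klf6 to 61.7% in Klf4. Zfp36 (9.87%) and Jun (10.9%) were also steady, and Maff (37.9%) and Ier5 (30.2%) followed Klf4 at the top. Junb, Ier2 and Jund tracked the mean of the other genes most closely, with Pearson r of 0.97, 0.97 and 0.92 over 8 libraries, while Nr4a3 (-0.64), Nr4a2 (-0.58) and Klf6 (-0.44) ran against it. The closest pair was Atf3 and Gadd45b (r = 0.98). These correlations describe 8 libraries that share their groups and WT fed replicate 3, and carry no p.

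The highest Klf4 levels were those of replicates 1. Klf4 was measured at 354.5, 85.3 and 125 CPM in fed Alkbh5-deficient replicates 1 to 3 and 246, 112 and 82.1 CPM in fed WT replicates 1 to 3, against 136 and 101 CPM in the unlabelled libraries. Egr2 (137, 60.6 and 67.0 CPM in fed Alkbh5-deficient libraries, 101, 81.2 and 81.7 CPM in fed WT libraries) and Egr3 (108, 57.4 and 45.8 CPM in fed Alkbh5-deficient libraries, 98.0, 69.9 and 84.7 CPM in fed WT libraries) were also highest in replicate 1 of each genotype. Both are linked to macrophage and lymphocyte maturation.

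The summed level of the monocyte and macrophage markers, without Klf4, was also highest in replicate 1 of each genotype. The sum was 7978, 3585 and 4095 CPM in fed Alkbh5-deficient libraries and 6943, 4338 and 2942 CPM in fed WT libraries, against 3110 and 3012 CPM in the unlabelled ones. Of the 17 markers, 11 were highest in fed replicate 1 of both genotypes, and Lyz2 and F13a1 made up most of the sum there. Lyz2 had 3631 CPM in Alkbh5-deficient and 3137 CPM in WT fed replicate 1, and F13a1 1183 and 1016 CPM. The macrophage genes C1qa and Mrc1 went the other way and were lowest in fed replicate 1 of both genotypes. C1qa had 4.07, 49.2 and 44.3 CPM in fed Alkbh5-deficient libraries, against 1.65, 39.96 and 45.9 CPM in fed WT libraries. None of the 17 was at 0 in any library. With Klf4 counted among them, 16 of 18 were positive between genotypes (median 0.20) and 15 of 18 with feeding (median 0.53), and none passed by edgeR or DESeq2. Adgre1, which codes for F4/80, had 0.45 ± 0.19 between genotypes, and the lysosomal genes Ctss (0.78 ± 0.32) and Lyz2 (1.01 ± 0.46) had the smallest p-values with feeding. Over 8 libraries Klf4 had r = 0.74 with the mean of these markers, followed by Tob1 (0.67) and Klf6 (0.62). Egr2 had 0.48 and Egr3 0.15, while Dusp2 had -0.81 and Dusp6 -0.73. Fed replicate 1 of both genotypes also had the highest summed neutrophil markers of the 8 libraries. The erythroid sum (997 and 1188 CPM, Alkbh5-deficient first) and the stromal and endothelial sum were lowest there. The stem and progenitor sum was at neither extreme in them. Replicates 1 of both genotypes also had the lowest share of reads in no gene, 37.6% in the Alkbh5-deficient and 38.3% in the WT library, against 48.9% to 52.1% in the other 6. What part the markers or that share have in the levels of Klf4 was not tested.

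Among 10535 other genes with a mean of at least 5 CPM, those most like the mean log2 CPM of the 34 genes over 8 libraries were Eif4g1 (r = 0.990), Chtf18 (0.989), Rps2-ps13 (0.987), Rnaseh2c (0.987) and Socs3 (0.987). They are given as a description only.

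Genes that act on or beside the immediate early genes were described from lists. Of 35 genes of ERK, SRF and CREB signalling, none passed between genotypes or between fed and unlabelled libraries by edgeR, and DESeq2 called 1 higher and 5 lower with feeding. The median log2 fold change with feeding was -0.07 in that list, and its smallest p-values belonged to Sos1 (-0.73 ± 0.14), the exchange factor that activates RAS, and Braf (-0.84 ± 0.18), a RAF kinase. Between genotypes they were those of Flt3 (-0.35 ± 0.18), the receptor of one of the cytokines in the medium, and Sos1 (0.26 ± 0.15). Of 33 AU-rich element binding and decay factors tested, none passed by edgeR in either comparison and DESeq2 called 1 higher and 7 lower with feeding. That list had a median of -0.30 with feeding and 0.09 between genotypes. Its genes of smallest p with feeding were Rc3h2 (-0.91 ± 0.20), coding for a Roquin protein, and Cnot6l (-0.87 ± 0.20), a deadenylase, and between genotypes Igf2bp2 (0.73 ± 0.37), an RNA-binding protein, and Rc3h2 (0.40 ± 0.22).

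Other rapid feedback regulators outside the 34 had the following signs. Of 44 tested, 31 were negative between genotypes, with a median of -0.12, and 26 were positive with feeding, with a median of 0.12. None passed by edgeR in either comparison, and with feeding DESeq2 called 3 higher and 1 lower. Socs3, which shuts off JAK-STAT signalling, had -0.43 ± 0.18 between genotypes and 0.63 ± 0.19 with feeding. Gadd45g, a relative of Gadd45b, had -0.83 ± 0.42 between genotypes and Klf3 had -0.57 ± 0.13 with feeding. Cytoskeletal targets of SRF were positive with feeding in 20 of 22 genes, with a median of 0.36 and none passing by edgeR. Their smallest p-values were those of the actin regulators Pfn1 (0.66 ± 0.19) and Coro1a (0.86 ± 0.27), and DESeq2 called 2 of the 22 higher. Between genotypes 9 of 21 were positive, with a median of -0.02, and the values for the genes of smallest p were -0.79 ± 0.77 for Ccn1 and -0.17 ± 0.20 for Tpm3.

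The partner factors and the stress response were mixed in sign. Of 20 other AP-1 and small MAF partners tested between genotypes, 9 were positive (median -0.02), with Mafk at -0.34 ± 0.21. With feeding 12 of 21 were positive (median 0.03), with Atf7 at -0.41 ± 0.15 and Atf2 at -0.53 ± 0.20. None of these passed by edgeR or DESeq2. Of 14 heat shock and dissociation response genes tested with feeding, 6 were positive (median -0.02) and none passed by edgeR, while DESeq2 called 1 higher. Hspa1b, an inducible HSP70 gene, had 0.85 ± 0.21, and its co-chaperone gene Dnaja1 had -0.76 ± 0.24. Between genotypes 8 of 13 were positive (median 0.05), with Hspa1a at 0.31 ± 0.21 and Hsf1 at -0.27 ± 0.20, and none passed by edgeR or DESeq2.

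Markers of the remaining cell types were tested in the same way, and none passed by edgeR in either comparison. Of 16 stem and progenitor markers, 7 were positive between genotypes (median -0.08) and 8 with feeding (median 0.01). Of 17 erythroid markers, 5 were positive between genotypes (median -0.19) and 8 with feeding (median -0.06). Among megakaryocyte markers, 5 of 10 were positive between genotypes (median -0.08) and 7 of 12 with feeding (median 0.22). B cell markers were positive in 4 of 13 between genotypes (median -0.16) and in 3 of 13 with feeding (median -0.31). T and NK cell markers were positive in 2 of 15 between genotypes (median -0.37) and in 6 of 17 with feeding (median -0.20), where DESeq2 called 1 higher.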

How the data were processed

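The authors deposited 1 table per library with raw read counts per gene, whole numbers without normalization. The tools named per the submitters' processing notes were HTSeq, HISAT2, STAR, cutadapt, Picard and DESeq2, and the builds GRCm38 and mm10. For versions, roles and strand setting the sources used here give nothing. Per the labels' protocols the kit was stranded and RNA was total. Csrnp1, Dusp5, Jund and Zfp36 overlap an antisense gene in GENCODE M21, so their reads may be shared. The 928 entries that name no gene held 37.6% to 52.1% of counts as reads in no gene, and stayed out of library sizes and tests. None of the 927 ambiguous entries named a member.

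The main test was edgeR 4.0.16 under R 4.3.3 (TMM, default low-count filter, robust quasi-likelihood fit, Benjamini-Hochberg over all genes tested at 0.05), over the 6 fed libraries for genotype and all 8 for s4U and the interaction. The standard error was the log2 fold change divided by the root of F. CPM was TMM-scaled over 8 libraries, log2 CPM had a prior count of 2, and ratios within a genotype are differences of mean log2 CPM. Alternatives were RLE size factors, other filters, DESeq2 1.42.0, a threshold of 0.1, the replicate block, an additive fit and each library left out; removing Gm26917 and Gm42418 was chosen after seeing the data.

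All 34 members were given levels. Statistics went to the 6 members of smallest p per comparison, and Fos, Jun, Egr1 and Dusp1 were given in every library. Of each context list outside the cell type markers, the 2 genes of smallest p were named, except where one is not reported here. Markers of 9 cell types were also tested: none passed by edgeR, and with feeding DESeq2 called 3 neutrophil, 2 mast cell, basophil and eosinophil and 1 T and NK cell markers higher. Marker genes are named for the stromal, neutrophil, monocyte and mast cell lists. Members and lists were chosen with earlier results of these data known.

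The labels do not say whether replicates are separate animals. Fed replicate 2 of both genotypes held Xist and 0 counts of Ddx3y, and replicates 1 and 3 held Ddx3y with at most 2 counts of Xist, so replicate 2 is from another animal. For replicates 1 and 3 this is not known, and p-values reflect the spread among these samples. The closest pair of libraries, the unlabelled WT and unlabelled Alkbh5-deficient ones, had a chi-square of 3.16 per gene, above sampling noise. Same-numbered fed libraries of the 2 genotypes had 7.21, 6.16 and 39.99 for replicates 1, 2 and 3. Fed libraries of the same genotype had 8.01 to 48.2. The replicate numbers are those of the labels. Each gene's deviations from its group mean correlated between same-numbered libraries of the 2 genotypes at r = 0.68, 0.29 and 0.19. The pairs crossed between numbers 2 and 3 correlated at 0.35. Same numbers were treated as pairs only in the ratios of same-numbered libraries and in the replicate block, an alternative run. The main genotype test did not use the pairing. Intervals cover counting error only, since they set 1 library against 1. The reads carry no molecular identifiers in these tables.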

Additional observations from a re-analysis of the deposited data

How the results depend on the processing

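Of the 34 genes, 0 were called between genotypes by edgeR and DESeq2 in every alternative run, and 0 in the interaction. With feeding 0 were called by edgeR in every alternative, whereas DESeq2 called 4 (Fos, Maff, Ier5 and Nr4a3); the cause was not tested. With the replicate block, 0 of the 34 were called between genotypes and the median log2 fold change was -0.19, so the block changed no call. At an unadjusted p below 0.05, edgeR with the block listed 6 of the 34, all lower in Alkbh5-deficient cells. Over all 13342 genes the share at that p was 2.65% in either direction. The main fit, without the block, listed 4 of the 34, with 1.13% of all genes in either direction. The genotype median ranged from -0.27 to -0.11 when each fed library was left out in turn, lowest without WT fed replicate 2 and nearest 0 without WT fed replicate 3. The median with feeding ranged from 0.14 without the unlabelled WT library to 0.35 without the unlabelled Alkbh5-deficient library, each of which leaves 1 unlabelled library that is assumed to vary like the others. None of the 18 single-gene values changed sign under any alternative. The adjusted p of Fos with feeding ranged from 0.0149 to 0.966 over 13 alternatives. The lowest count of any of the 34 genes in a library was 68, for Tob1. Over all genes the chi-square per gene between 2 libraries was 3.16 to 61.3, above sampling noise, and how far depth limits these comparisons was not tested.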
